A study of Mus musculus with 12 samples.

Results

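Macrophages in collagen gels and macrophages on tissue culture (TC) plates were compared for how each responded to interleukin-4 (IL-4), gene by gene, by RNA sequencing. For every gene the IL-4 effect (IL-4 minus untreated, on the log2(TPM + 1) scale) was averaged over 2 gel densities, and the IL-4 effect on plates was subtracted from it. TPM is a measure of transcript abundance relative to length, and it has the same sum in every library. Of the 34327 genes of the table, 9670 had a mean of at least 5 TPM over the 12 libraries and were fitted. Of these, 1306 (13.5%) had an IL-4 effect that differed between gels and plates in limma at a Benjamini-Hochberg adjusted p under 0.05. A value written with ± is a log2 difference with its standard error from that fit, and "called" means past that threshold. The difference was positive, a higher IL-4 effect in gels, in 596 genes (6.16%) and negative in 710 (7.34%), and 226 of the 1306 differed at least 2-fold. Leaving out 1 plate library lowered the 1306 to between 767 and 867: 767 without TC untreated replicate 1, 801 without TC untreated replicate 2, 867 without TC IL-4 replicate 1 and 819 without TC IL-4 replicate 2.

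IL-4 binds a receptor that activates the kinases JAK1 and JAK3 and the transcription factor STAT6, and in macrophages this drives alternative activation, a program of genes for tissue repair, lipid handling and defence against parasites that includes Arg1, Retnla and Chil3. Macrophages also sense their surroundings. Plastic presents a flat, stiff and adhesive surface, while a fibrillar collagen gel surrounds the cell on all sides and is far softer. The cells were bone marrow-derived macrophages (BMDMs) of wild-type C57BL/6 mice (C57BL/6J in the study's methods), grown in medium with L929-cell supernatant and then either embedded in floating gels of rat tail collagen I or seeded on TC plates. There were 6 groups of 2 libraries. Gels held collagen at 2 mg/ml (called low) or at 7 mg/ml (high), and each gel and the TC plates received either no cytokine or IL-4 at 20 ng/ml, with a label of 24 h for all. In the study's methods the gels and the plates differ as well in the number of cells per well and in the transfer of gels before lysis, and the extraction given with the samples describes gels only. The effect of the gel cannot be told apart from these. Nothing in the labels says that the 2 libraries of a group came from separate mice or cultures, so the p-values measure the spread between these libraries, which may be technical.

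The libraries resembled their labels. All 8 macrophage markers checked (Csf1r, Adgre1, Lyz2, Cd68, Itgam, Mertk, Fcgr1 and Cd14) were at 1 TPM or more in every group. Their summed level was 27984 to 28590.1 TPM on untreated plates and 17540.8 to 17541 with IL-4, against 43329 to 53953 in untreated gels and 30713 to 37695 with IL-4, most of it Lyz2. Markers of lymphocytes (8 genes) and of eosinophils, mast cells or basophils (8 genes) summed to at most 1.42 and 2.22 TPM in any library. The 8 fibroblast markers summed to 0.735 to 2.75 TPM without IL-4, to 1.45 to 1.73 TPM on plates with IL-4 and to 5.01 to 9.40 TPM in gels with IL-4, where Postn was the highest. The 8 dendritic cell markers summed to 3.42 to 10.5 TPM without IL-4, 11.3 to 13.8 TPM on plates with IL-4 and 34.6 to 55.7 TPM in gels with IL-4, nearly all of it Batf3, a transcription factor whose difference between gels and plates was not called. The 8 endothelial or epithelial markers summed to 2.39 to 3.19 TPM in untreated gels, 9.67 to 14.0 TPM in gels with IL-4 and 6.11 to 11.1 TPM on plates. Markers of erythroid cells or platelets (8 genes) summed to 813 to 1164 TPM, nearly all of it Pf4, whose difference was called. The part of these markers in the results was not tested. The mitochondrial genes took 3.30% to 4.16% of TPM in gels and 5.22% to 5.86% on plates. In bulk RNA, fewer cells of a type and less RNA per cell cannot be told apart.

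In gels 4620 genes were called (47.8%), 1262 higher and 3358 lower with IL-4, and on plates 2519 (26.0%), 985 higher and 1534 lower. The mean over gels rests on 8 libraries and the plate effect on 4, so the counts do not compare the size of the responses. With at least a 2-fold change as well, 421 genes were called in the mean of both gels and 508 on plates. Low-collagen gels alone had 553 such genes and high-collagen gels alone 354. Of 1849 genes called in both, 1713 moved in the same direction. The median IL-4 effect of all genes was −0.14 in gels and −0.06 on plates, and the median difference was −0.08. After rescaling the libraries by median ratios the gel median became 0.01 and the median difference 0.02, and 1329 genes were called, 870 higher and 459 lower, so which direction was the more frequent depended on the scaling.

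**Figure D1:**
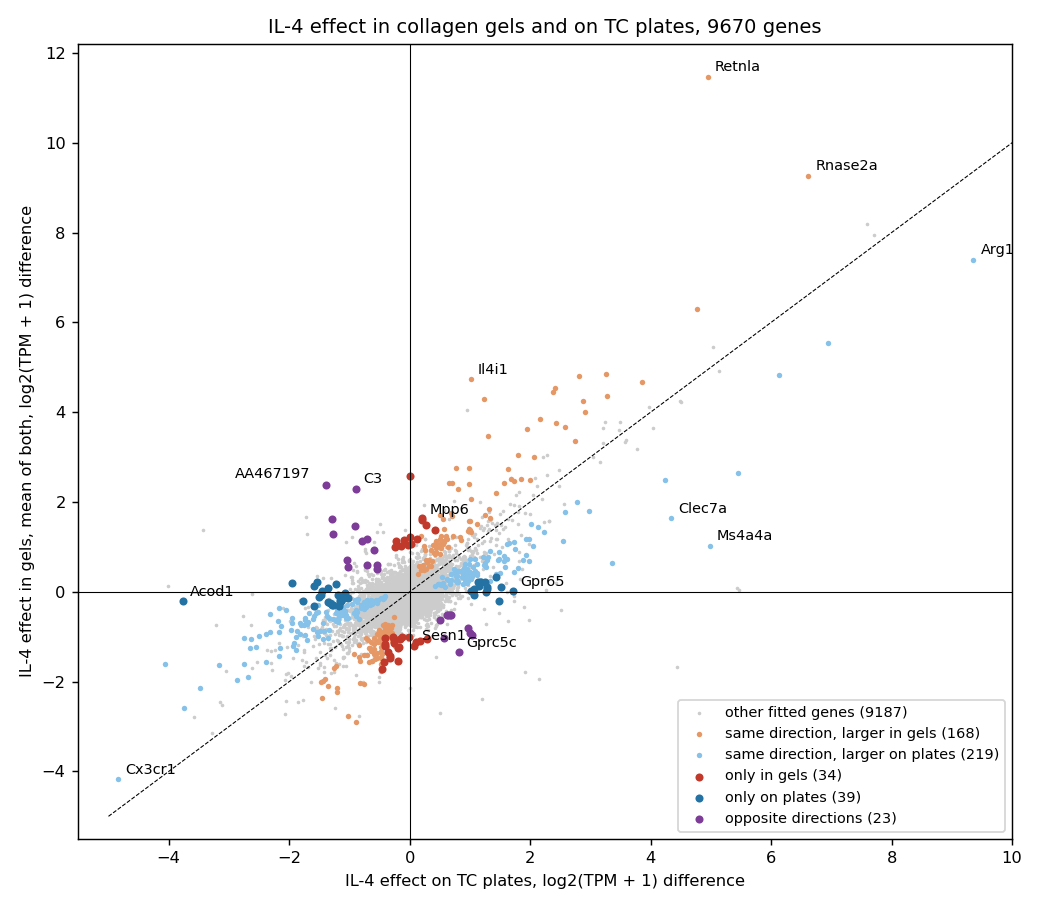
Each point is a gene, with the IL-4 effect on TC plates on the x axis and the mean IL-4 effect of both gels on the y axis, both as log2(TPM + 1) differences, and the dashed line marks equal effects. Red points (34 genes) lie along the vertical line of no effect on plates, dark blue points (39 genes) along the horizontal line of no effect in gels, and purple points (23 genes) in the quadrants of opposite sign.

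The 1306 genes were sorted by their response. A response was a called effect of at least 1 (2-fold), for gels in the mean of both. No response was an effect under 0.5 in size that was not called. Both gels had to move in the same direction to count as a response, and each had to stay under 0.5 to count as none. By this rule 34 genes responded only in gels, 15 of them at least 2-fold in each gel, and 39 only on plates. A further 23 were called in opposite directions with effects of at least 0.5 on both sides. Another 168 moved in the same direction but further in gels and 219 further on plates, and 823 lay between these definitions (432 called in gels and not on plates, 255 the reverse, 113 in both and 23 in neither). These groups were cut from the same values that are described below, and a gene without a called effect may still have a small one.

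Of the 34 genes that responded only in gels, 13 rose and 21 fell with IL-4. Mpp6, a membrane-associated scaffold protein of the MAGUK family (chr6:50110241-50198939, GRCm38), stood at 18.1 and 16.1 TPM in untreated low-collagen gels and at 61.7 and 67.9 with IL-4. In high-collagen gels it stood at 19.6 and 22.4 and then at 54.6 and 54.8. On plates it was at 47.7 and 46.9 TPM untreated and 57.3 and 52.5 with IL-4, so that IL-4 brought the gels to about the level that plates had throughout. The IL-4 effect was 1.60 ± 0.07 in gels and 0.21 ± 0.09 on plates, and the difference of 1.39 ± 0.11 was called (adjusted p = 5.79e-05). Glrx, the glutaredoxin that removes glutathione from oxidised proteins, had the same shape. It rose from 56.7 and 73.7 to 166 and 162 TPM in low-collagen gels and from 82.4 and 72.5 to 163 and 147 TPM in high-collagen gels. Its 4 plate libraries lay between 176 and 193 TPM (difference 1.25 ± 0.14, adjusted p = 0.000301). Igf2bp2, an mRNA-binding protein, went from 4.17 and 4.37 to 9.48 and 7.29 TPM in low-collagen gels and from 2.34 and 3.60 to 9.77 and 9.35 TPM in high-collagen gels. Its plate libraries were 13.2 and 11.7 TPM untreated and 10.9 and 10.0 with IL-4 (difference 1.36 ± 0.22, adjusted p = 0.00274).

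Among the other genes of this set, Ptgir, the receptor for prostacyclin, was between 8.38 and 14 TPM in the 4 untreated gel libraries and between 28.1 and 32.1 with IL-4. It was at 11.4 and 12.3 on untreated plates and 15.4 and 13.7 with IL-4 (difference 1.21 ± 0.15, adjusted p = 0.000804). Pim1, a serine/threonine kinase induced by STAT signals, had an IL-4 effect of 1.02 ± 0.06 in gels and −0.15 ± 0.08 on plates (adjusted p of the difference = 6.88e-05). The calcium-binding protein S100a6 and the LIM domain protein Crip1, both abundant, had gel effects of 1.05 ± 0.05 and 1.06 ± 0.05 and plate effects of −0.04 ± 0.08 and 0.02 ± 0.08. Fut8, which adds the core fucose to N-glycans, and Cdc42ep2, an effector of the GTPase Cdc42, belonged to the set too, with differences of 1.05 ± 0.17 and 0.96 ± 0.24. On plates Cdc42ep2 was at 0.652 and 0.584 TPM untreated and at 1.45 and 0.926 with IL-4. At such levels the scale understates a fold change, so a response of Cdc42ep2 on plates may be missed. Tdgf1-ps1, a processed pseudogene, had the largest difference (2.58 ± 0.48, adjusted p = 0.00592). It was listed at 0 in all 4 plate libraries, and it went from 1.61 and 1.08 to 9.66 and 9.16 TPM in low-collagen gels and from 2.92 and 0.395 to 17.9 and 17.8 TPM in high-collagen gels. A pseudogene shares sequence with its parent gene and the division of reads between them is uncertain, and with a pseudocount of 0.1 this difference was no longer called. The remaining members were Gm4070, Tex9 and Hemk1, and the call of Hemk1 was lost on leaving out any of 7 of the 12 libraries, all 4 plate libraries among them (adjusted p = 0.0669 to 0.132 in limma).

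The 21 genes that fell only in gels were mostly higher in untreated gels than on untreated plates (18 of 21). The same held for 510 of the 710 genes with a lower called effect in gels and for 3737 of all 9670 genes. Sesn1, a stress-induced protein that restrains mTORC1 (chr10:41809935-41908424), fell from 192 and 202 to 71.2 and 69.7 TPM in low-collagen gels and from 151 and 148 to 79.3 and 77.3 TPM in high-collagen gels. On plates it was at 52.5 and 49.8 TPM without and 54.5 and 53.6 TPM with IL-4 (difference −1.28 ± 0.07, adjusted p = 8.75e-06). Wwp1, an E3 ubiquitin ligase, fell from 232 and 261 to 91.6 and 88 TPM in low-collagen gels and from 264 and 266 to 156 and 155 TPM in high-collagen gels. It was at 65.7 and 62.6 TPM on plates without and 70.3 and 73.8 with IL-4 (difference −1.27 ± 0.08, adjusted p = 1.42e-05). In both genes the gel libraries with IL-4 lay below the untreated gels and still above every plate library.

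Ermard, an endoplasmic reticulum membrane protein, had the largest difference of the falling genes at −1.35 ± 0.17 (adjusted p = 0.000656). It fell from 98.9 and 107 to 31.2 and 28.4 TPM in low-collagen gels and from 94.9 and 75.7 to 29.4 and 37.4 TPM in high-collagen gels. On plates it was at 22.6 and 24.1 TPM untreated and at 21.8 and 18.9 with IL-4. Ccr2, the receptor for the chemokine CCL2, fell from 22.1 and 23.5 to 7.12 and 7.22 TPM in low-collagen gels and from 36.4 and 33.6 to 10.7 and 11.4 TPM in high-collagen gels. On plates it was at 2.95 and 5.04 TPM and with IL-4 at 2.45 and 2.80 (difference −1.13 ± 0.22, adjusted p = 0.00727). Cd5l, a protein secreted by macrophages that binds lipids and IgM, had a gel effect of −1.47 ± 0.13 and a plate effect of −0.32 ± 0.19. The receptor adaptor Gab1 (−1.04 ± 0.12 in gels, 0.29 ± 0.17 on plates), the secreted glutathione peroxidase Gpx3 (−1.43 ± 0.12 and −0.32 ± 0.17), the mTOR inhibitor Deptor (−1.05 ± 0.12 and −0.16 ± 0.17) and the clock repressor Nr1d1 (−1.01 ± 0.08 and −0.13 ± 0.12) fell in gels as well. Also in the set were Gfra4, Gm6741, Tctex1d4, Ankrd33b, Fam212a, Stap1, Fam214a, Dclre1c, Tubgcp5, Camk1d, Rnpep and Sipa1l2, with differences from −1.25 to −0.61. Gm6741 is a processed pseudogene, so its level is uncertain. Tctex1d4 lay between 1.05 and 1.67 TPM in the plate libraries, where a fall would be understated on this scale. Leaving out any of 7 libraries ended the call of Gfra4 (adjusted p = 0.0568 to 0.145 in limma), and any of 10 that of Gm6741 (adjusted p = 0.0557 to 0.183).

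Of the 39 genes that responded only on plates, 15 rose and 24 fell. Gpr65, an acid-sensing receptor (chr12:98268635-98276644), rose from 39.9 and 42 TPM to 138 and 136 TPM on plates. In gels its effect was 0.01 ± 0.04 and was not called, with 113 and 113 TPM untreated and 114 and 114 with IL-4 at low collagen and 102 and 101 and 107 and 98.6 at high collagen (difference −1.70 ± 0.07, adjusted p = 1.19e-06). The untreated gels thus already stood nearer to IL-4-treated than to untreated plates. Tlr8, an endosomal RNA receptor, had the same order, rising from 49.5 and 47.5 TPM to 117 and 121 TPM on plates and lying between 88.7 and 124 TPM in all 8 gel libraries (difference −1.22 ± 0.11, adjusted p = 8.96e-05). Pdgfc, a platelet-derived growth factor, went from 2.19 and 1.89 TPM to 6.03 and 6.77 TPM on plates and was between 5.03 and 8.65 in gels (difference −1.18 ± 0.23, adjusted p = 0.00767).

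Gadd45a, a stress and DNA damage protein, also rose only on plates. It went from 26.1 and 29 TPM to 81.2 and 76.1 TPM on plates, and its gel libraries lay between 25.9 and 41.4 TPM with or without IL-4. Enpp1, an enzyme that hydrolyses extracellular ATP and cGAMP, went from 8.96 and 8.89 TPM to 27.2 and 27.3 TPM on plates and stayed between 9.17 and 11.3 TPM in gels. The differences were −1.69 ± 0.17 (adjusted p = 0.000168) and −1.40 ± 0.15 (adjusted p = 0.000234). The kinase Hipk2 and the IL-1 receptor subunit Il1rap had plate effects of 1.26 ± 0.14 and 1.44 ± 0.21 and gel effects of −0.01 ± 0.10 and 0.33 ± 0.15. The call of Il1rap was lost without TC IL-4 replicate 2 (0.0875), TC untreated replicate 1 (0.0667) or TC untreated replicate 2 (0.0690), with the adjusted p of limma in brackets. The others were the sialyltransferase St6galnac4, the prostaglandin E2 receptor Ptger2, Eps8, Lpcat1, Rab11fip5, Vps13d, Aph1c and Nat9.

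Among the 24 genes that fell only on plates, the largest difference was that of Acod1, the enzyme that makes itaconate from cis-aconitate in activated macrophages (chr14:103046977-103056573). It fell from 21 and 24.1 TPM to 0.656 and 0.793 TPM on plates. In gels it was at 3.78 and 10.6 TPM untreated and 8.09 and 5.75 with IL-4 at low collagen, and at 7.54 and 6.13 and 4.88 and 4.19 at high collagen. The difference was 3.56 ± 0.41 (adjusted p = 0.000421). Cd86, a costimulatory ligand of CD28, fell from 24.7 and 21.1 TPM to 5.44 and 9.59 TPM on plates. Its gel libraries all lay between 34.6 and 55.3 TPM (difference 1.75 ± 0.23, adjusted p = 0.000976). Traf1, a signalling adaptor of TNF receptors and a target of NF-κB, had a plate effect of −1.96 ± 0.26 and a gel effect of 0.19 ± 0.18.

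Slc16a3, the lactate exporter MCT4, was also in this set. It fell from 148 and 155 TPM to 53.6 and 46.4 TPM on plates and was between 175 and 250.3 TPM in the 8 gel libraries (difference 1.71 ± 0.11, adjusted p = 1.62e-05). Egln3, a prolyl hydroxylase of hypoxia-inducible factors, fell from 11.9 and 11.8 TPM to 2.20 and 3.48 TPM on plates and was between 39.1 and 63.2 TPM in gels. The mitophagy receptor Bnip3 had effects of −1.07 ± 0.12 on plates and −0.03 ± 0.08 in gels. Lss and Fdft1 are enzymes of cholesterol synthesis. Lss fell from 34.9 and 31.3 TPM to 14.5 and 12.6 TPM on plates, and in gels it was at a lower level from the start, between 5.12 and 9.11 TPM (difference 1.41 ± 0.24, adjusted p = 0.00396). The interferon-inducible GTPases Gbp2, Gbp9 and Ifi47 had plate effects of −1.35 ± 0.29, −1.46 ± 0.18 and −1.47 ± 0.25 and gel effects of 0.07 ± 0.20, 0.02 ± 0.13 and −0.07 ± 0.18. The guanylate-binding proteins resemble each other, so their reads may be divided between them. Gbp2 lost its call without high-collagen IL-4 replicate 1 (0.0505), TC IL-4 replicate 1 (0.0989), TC untreated replicate 1 (0.0640) or TC untreated replicate 2 (0.0873), and Ifi47 without TC IL-4 replicate 1 (0.0592) or TC untreated replicate 2 (0.0644), with the adjusted p of limma in brackets. The set also held Uchl1, Sorl1, Rhof, Phf11b, St14, Ube2l6, Ctsc, Ly6e, Smpdl3b, Tmem171, Sdc3 and Cpeb2.

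**Figure D2:**
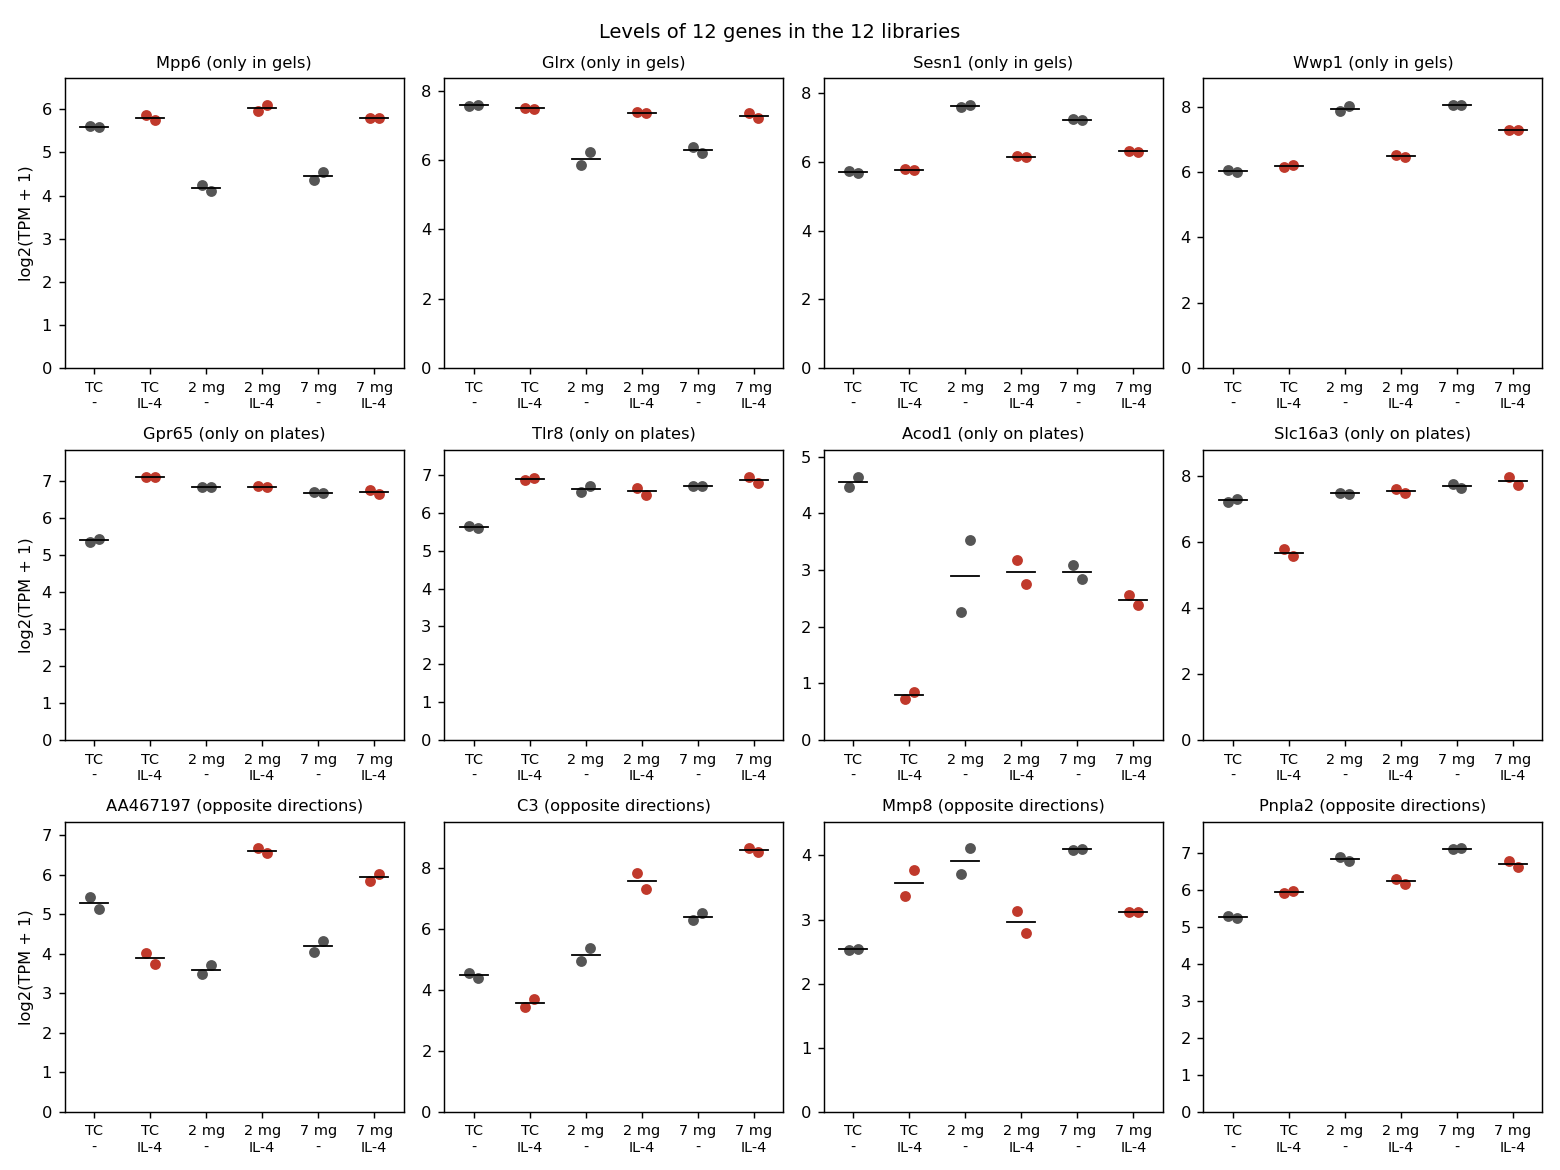
Each panel shows 1 gene as log2(TPM + 1) in the 12 libraries, with untreated libraries in grey, IL-4 libraries in red and a line at the mean of each pair. Mpp6 and Glrx rise in both gels to the level of the plates, Sesn1 and Wwp1 fall in both gels, Gpr65, Tlr8, Acod1 and Slc16a3 change on plates, and AA467197, C3, Mmp8 and Pnpla2 move in opposite directions.

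In the 23 genes with opposite effects, 13 rose in gels and fell on plates. AA467197 (chr2:122636986-122641191), the mouse counterpart of human C15orf48 and a small mitochondrial protein, fell from 42.2 and 34.3 TPM to 15.3 and 12.5 TPM on plates. In gels it rose from 10.2 and 12.1 to 101 and 92.6 TPM in low-collagen gels and from 15.6 and 19 to 56.9 and 63.7 TPM in high-collagen gels, so that the order of gels and plates was turned round by IL-4. Its difference of 3.78 ± 0.18 (adjusted p = 2.23e-06) was among the 10 largest called and was called in each of the 20 other fits with the same threshold. C3, the central component of complement (chr17:57203970-57228136), fell from 22.3 and 20.1 TPM to 9.91 and 12.1 TPM on plates. In gels it rose from 29.7 and 39.9 to 228 and 155 TPM in low-collagen gels and from 77.6 and 89.7 to 396 and 366 TPM in high-collagen gels (difference 3.19 ± 0.23, adjusted p = 2.30e-05). Unlike AA467197 it was higher in gels than on plates before IL-4.

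Tnip3, an inhibitor of NF-κB signalling that binds A20, fell from 47.7 and 51.4 TPM to 17.3 and 22.2 TPM on plates. In gels it rose from 12.5 and 10.7 to 49.4 and 44.6 TPM in low-collagen gels and from 14.2 and 17.5 to 41.3 and 38.6 TPM in high-collagen gels (difference 2.91 ± 0.17, adjusted p = 8.75e-06). Ass1, the argininosuccinate synthase that rebuilds arginine from citrulline, fell from 133 and 127 TPM to 79.1 and 80.2 TPM on plates. It rose from 13.7 and 18 to 47.7 and 37.4 TPM in low-collagen gels and from 21.4 and 22.3 to 43.4 and 45.4 TPM in high-collagen gels. Every gel library of Ass1 nevertheless stayed below every plate library. Rnase6, an antimicrobial ribonuclease, and Aqp9, a channel for water and glycerol, had gel effects of 1.46 ± 0.14 and 1.29 ± 0.17 and plate effects of −0.91 ± 0.20 and −1.27 ± 0.25. Slamf7 and Cd244, both receptors of the SLAM family, lie 22657 bases apart on chromosome 1, and both rose in gels (0.71 ± 0.07 and 0.55 ± 0.19) and fell on plates (−1.03 ± 0.10 and −1.02 ± 0.27). The others were Gm11331, the IL-12 receptor subunit Il12rb2, Cytip, the surface glycoprotein Cd52 and the tubulin Tuba1a, with differences from 1.06 to 1.93.

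The other 10 fell in gels and rose on plates. Mmp8, a collagenase best known from neutrophils, and Mmp27, a less studied member of the same protease family, lie 2911 bases apart on chromosome 9. Mmp8 rose from 4.74 and 4.84 TPM to 9.27 and 12.7 TPM on plates. It fell from 12.1 and 16.3 to 7.74 and 5.94 TPM in low-collagen gels and from 16.1 and 16.2 to 7.64 and 7.67 TPM in high-collagen gels (difference −2.00 ± 0.22, adjusted p = 0.000328). Mmp27 rose from 6.64 and 7.13 TPM to 14.5 and 14.4 TPM on plates. It fell from 36.9 and 44.9 to 18 and 19.1 TPM in low-collagen gels and from 24.9 and 23.5 to 18.9 and 14.8 TPM in high-collagen gels (difference −1.77 ± 0.16, adjusted p = 9.11e-05). The 8 neutrophil markers summed to 6.14 to 10.3 TPM on untreated plates, 5.25 to 10.6 on plates with IL-4, 16.3 to 34.6 in untreated gels and 14.6 to 23.2 in gels with IL-4, mainly S100a8 and S100a9. The differences of these genes were not called, and the part of the list in the Mmp8 result was not tested.

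Pnpla2, the triglyceride lipase ATGL, and Plin2, a coat protein of lipid droplets, were also in this set. Pnpla2 rose from 38.4 and 37.3 TPM to 60.0 and 61.7 TPM on plates. It fell from 119 and 111 to 78.3 and 71.5 TPM in low-collagen gels and from 138 and 139.6 to 109.6 and 98.5 TPM in high-collagen gels (difference −1.19 ± 0.09, adjusted p = 3.78e-05). Plin2 rose from 438 and 461 TPM to 636 and 644 TPM on plates. It fell from 877 and 847 to 487 and 526 TPM in low-collagen gels and from 822 and 792 to 586 and 579 TPM in high-collagen gels (difference −1.13 ± 0.06, adjusted p = 8.75e-06). The orphan receptor Gprc5c had the largest difference of these 10, −2.16 ± 0.25 (adjusted p = 0.000421). It was under 2 TPM in all 4 plate libraries and fell from 15.6 and 13.4 to 5.64 and 3.82 TPM in low-collagen gels and from 17.1 and 16.6 to 6.38 and 6.60 TPM in high-collagen gels. Akap13, Atf7ip, the lysosomal nucleoside transporter Slc29a3, the histone gene Hist2h3c1 and Gm10134 made up the rest. Histone H3 genes have near-identical copies, so that the level of Hist2h3c1 is uncertain.

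For many of these genes the gels and the plates differed before IL-4 was given. Without IL-4, 6742 of the 9670 genes (69.7%) were called between gels and plates, 2444 higher in gels (25.3%) and 4298 lower (44.4%). Of the 21 genes that fell only in gels, 14 were called higher in untreated gels than on untreated plates and 3 lower, with a median of 1.66. Of the 13 that rose only in gels, 8 were called lower in untreated gels and 4 higher. Of the 15 genes that rose only on plates, 11 were called higher in untreated gels and 2 lower. All 10 genes that fell in gels and rose on plates were called higher in untreated gels, by a median of 1.59, and with IL-4 this median was −0.15. The gap between gels and plates was smaller with IL-4 than without in 9 of those 10 genes and in 14 of the 21 that fell only in gels, against 49.0% of all genes fitted and 55.2% of the 1306. The 24 genes that fell only on plates went the other way, with a smaller gap in 8 and a median size of the gap of 1.03 without and 1.73 with IL-4. With IL-4, 7078 genes (73.2%) were called between gels and plates, 4948 of them lower in gels (51.2%), and of these 24 genes 23 were called, 7 of them lower in gels. The difference between the IL-4 effects is by construction the gap with IL-4 minus the gap without it, and both use the same libraries as the classes, so these counts describe the genes and are no separate evidence.

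**Figure D3:**
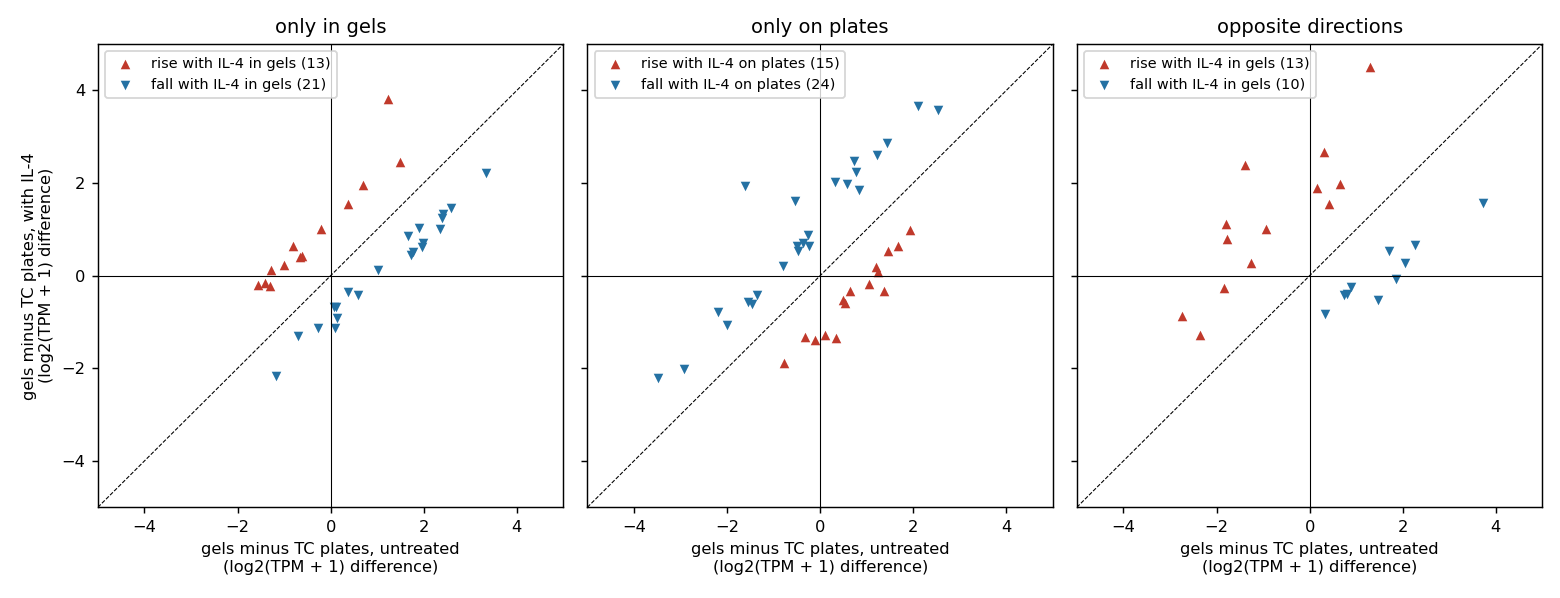
Each point is a gene of 1 of the 3 classes, with gels minus TC plates in untreated cells on the x axis and with IL-4 on the y axis, as log2(TPM + 1) differences averaged over both gels, and the dashed line marks a gap that IL-4 did not alter. The 10 genes that fell in gels and rose on plates all lie to the right of 0, between 0.34 and 3.73, and come closer to the horizontal line in 9 cases.

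The 168 genes that moved further in gels comprised 90 that rose and 78 that fell, and the 219 that moved further on plates comprised 98 that rose and 121 that fell. Retnla, which encodes the secreted repair factor RELMα (chr16:48842551-48844461), had the largest called difference of all. It went from 0.969 and 6.52 TPM to 126 and 109.7 TPM on plates. In low-collagen gels it was at 0 and 0.296 TPM untreated and 7612 and 9073 with IL-4, and in high-collagen gels at 0.389 and 0 and 1472 and 1152. The IL-4 effect was 11.47 ± 0.33 in gels and 4.95 ± 0.47 on plates (difference 6.52 ± 0.57, adjusted p = 8.96e-05), on a scale where a level at or near 0 makes the size of the effect depend on the pseudocount. Il4i1, a secreted amino acid oxidase named for its induction by IL-4, went from 1.74 and 0.471 TPM to 2.63 and 3.52 TPM on plates. In gels it went from 1.79 and 3.17 to 80.7 and 69.9 TPM in low-collagen gels and from 1.47 and 2.58 to 96 and 92.7 TPM in high-collagen gels (difference 3.73 ± 0.37, adjusted p = 0.000168). Tppp3, a tubulin-binding protein, was next, with 4.30 ± 0.16 in gels and 1.24 ± 0.23 on plates.

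Of the falling genes that fell further in gels, Nr4a1, an immediate early nuclear receptor, went from 25.1 and 21.6 to 1.08 and 1.80 TPM in low-collagen gels and from 13.5 and 8.76 to 1.05 and 1.23 TPM in high-collagen gels, and from 3.14 and 4.20 TPM to 0.978 and 2.15 TPM on plates (difference −2.01 ± 0.34, adjusted p = 0.00374). Hpgd, the enzyme that inactivates prostaglandin E2, fell by 2.78 ± 0.15 in gels and by 1.03 ± 0.21 on plates, on the log2 scale, but from a level under 2 TPM on plates, and with a pseudocount of 0.1 the difference was not called. Ighm, the immunoglobulin heavy chain constant gene, and Enc1, an actin-binding protein, were the others of the 4 largest, with differences of −1.30 ± 0.13 and −1.28 ± 0.10, and both were higher in every gel library than in any plate library.

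Of the 98 genes that rose further on plates, 67 were higher in untreated gels than on untreated plates, beside 510 of the 710 genes with a lower called effect in gels and 3737 of all 9670. Ms4a4a, a tetraspanning protein of macrophages, went from 6.14 and 3.17 TPM to 169 and 174 TPM on plates. Untreated gels held 168 and 219 TPM at low and 124 and 96.8 at high collagen, which rose to 339 and 346 and to 308 and 215 (difference −3.95 ± 0.30, adjusted p = 3.63e-05). Atp6v0d2, a subunit of the vacuolar proton pump, went from 5.77 and 6.92 TPM to 317 and 321 TPM on plates. Its gel levels went from 78.4 and 71 to 435 and 464 TPM in low-collagen gels and from 47.2 and 51.7 to 323 and 342 TPM in high-collagen gels (difference −2.80 ± 0.11, adjusted p = 9.52e-07). Ednrb, the endothelin B receptor, had effects of 0.63 ± 0.13 in gels and 3.36 ± 0.18 on plates. Of the genes that fell further on plates, Gpr84, a receptor for medium-chain fatty acids, went from 53.1 and 53.1 TPM to 2.65 and 1.90 TPM on plates. In gels it went from 5.30 and 8.09 to 0.941 and 1.18 TPM in low-collagen gels and from 6.83 and 4.97 to 1.95 and 1.55 TPM in high-collagen gels (difference 2.45 ± 0.27, adjusted p = 0.000311). The chemokine Cxcl16, the leukocyte actin-binding protein Lsp1 and the antiviral membrane protein Ifitm3 fell on plates by 2.31 ± 0.09, 2.17 ± 0.06 and 2.74 ± 0.16 on the log2 scale and in gels by 0.50 ± 0.07, 0.36 ± 0.04 and 1.02 ± 0.11.

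The alternative activation genes were examined as a list of 40, of which 39 were in the table and 32 were fitted. With IL-4, 29 of the 32 rose and 2 fell in gels, and 30 rose and 1 fell on plates. The IL-4 effect differed for 18 of the 32 (13.5% of all genes), 12 being higher in gels and 6 lower, and the median difference of the list was 0.27 against −0.08 for all genes. The 8 others of the 40 were Chil4, Ccl17, Ccl22, Cd209e, Cd209a, Ear11, Alox15 and Cdh1. Besides Retnla and Il4i1, the genes with a larger rise in gels were Rnase2a and Ear2, secreted ribonucleases of the eosinophil-associated family that may share reads, Pdcd1lg2, which encodes the checkpoint ligand PD-L2, Ch25h, the 25-hydroxylase of cholesterol, the feedback inhibitors Socs1 and Cish, the integrin Itgax, Vwf, Irf4 and the transferrin receptor Tfrc. With a pseudocount of 0.1 the differences of Rnase2a and Ear2 were no longer called (adjusted p = 0.0586 and 0.250 in limma), and that of Irf4 turned to −0.28 (adjusted p = 0.648). Socs1 went from 0.816 and 1.17 TPM to 55.8 and 50.6 TPM on plates. In gels it went from 0.678 and 1.01 to 183 and 175 TPM in low-collagen gels and from 0.825 and 0.691 to 123 and 100.4 TPM in high-collagen gels (difference 1.54 ± 0.18, adjusted p = 0.000401). Pdcd1lg2 went from 0.292 and 0.105 TPM to 5.30 and 5.47 TPM on plates. Its gel levels went from 0.584 and 0.180 to 32.9 and 34.8 TPM in low-collagen gels and from 0.711 and 0 to 30.5 and 23.2 TPM in high-collagen gels (difference 2.12 ± 0.33, adjusted p = 0.00224), and with a pseudocount of 0.1 this was not called. Irf4 and Tfrc lay next to the threshold (adjusted p = 0.0493 and 0.0498), and the call of Irf4 was lost on leaving out any 1 of the 12 libraries (adjusted p = 0.0617 to 0.154) and that of Tfrc on leaving out any of 10 (adjusted p = 0.0515 to 0.171). The call of Cish was lost in 3 of 20 other fits (adjusted p up to 0.0825 in limma), 1 of them without TC untreated replicate 1.

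The 6 with a higher effect on plates were Clec7a, Arg1, Clec10a, Tgm2, Matk and Mrc1. Clec7a, the β-glucan receptor dectin-1, went from 19 and 23.2 TPM to 443 and 445 TPM on plates. Its gel levels went from 143 and 135 to 496 and 488 TPM in low-collagen gels and from 128 and 141 to 355 and 387 TPM in high-collagen gels (difference −2.70 ± 0.11, adjusted p = 9.52e-07). With IL-4 the plates thus lay between the gels of either density, and without IL-4 the gels were higher by 2.65 ± 0.08. Arg1, which splits arginine into ornithine and urea, went from 1.76 and 7.09 TPM to 3114 and 3069 TPM on plates. In gels it went from 46.3 and 42 to 7958 and 7672 TPM in low-collagen gels and from 41.5 and 37.6 to 6999 and 6307 TPM in high-collagen gels (difference −1.96 ± 0.43, adjusted p = 0.0146). The gels held more Arg1 than plates in both states. Its call was lost in 3 of 20 other fits (adjusted p up to 0.0655 in limma), among them those without TC IL-4 replicate 1 or TC IL-4 replicate 2. That of Matk, a tyrosine kinase, was lost in 2 of 20 other fits (adjusted p up to 0.164 in limma), 1 of them without TC IL-4 replicate 1. Tgm2, a transglutaminase, rose on plates (0.95 ± 0.08) and had an effect of −0.01 ± 0.06 in gels. Mrc1, the mannose receptor, did not differ between untreated gels and plates by a called amount (0.07 ± 0.08) and reached 923 and 823 TPM in low-collagen gels, 773 and 766 in high-collagen gels and 1349 and 1380.4 on plates (difference −0.80 ± 0.11, adjusted p = 0.00140). For Chil3, Mgl2, Egr2 and Pparg, other hallmarks of the program, the differences of 0.60 ± 0.33, 0.23 ± 0.31, −0.24 ± 0.21 and −0.28 ± 0.22 were not called.

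**Figure D4:**
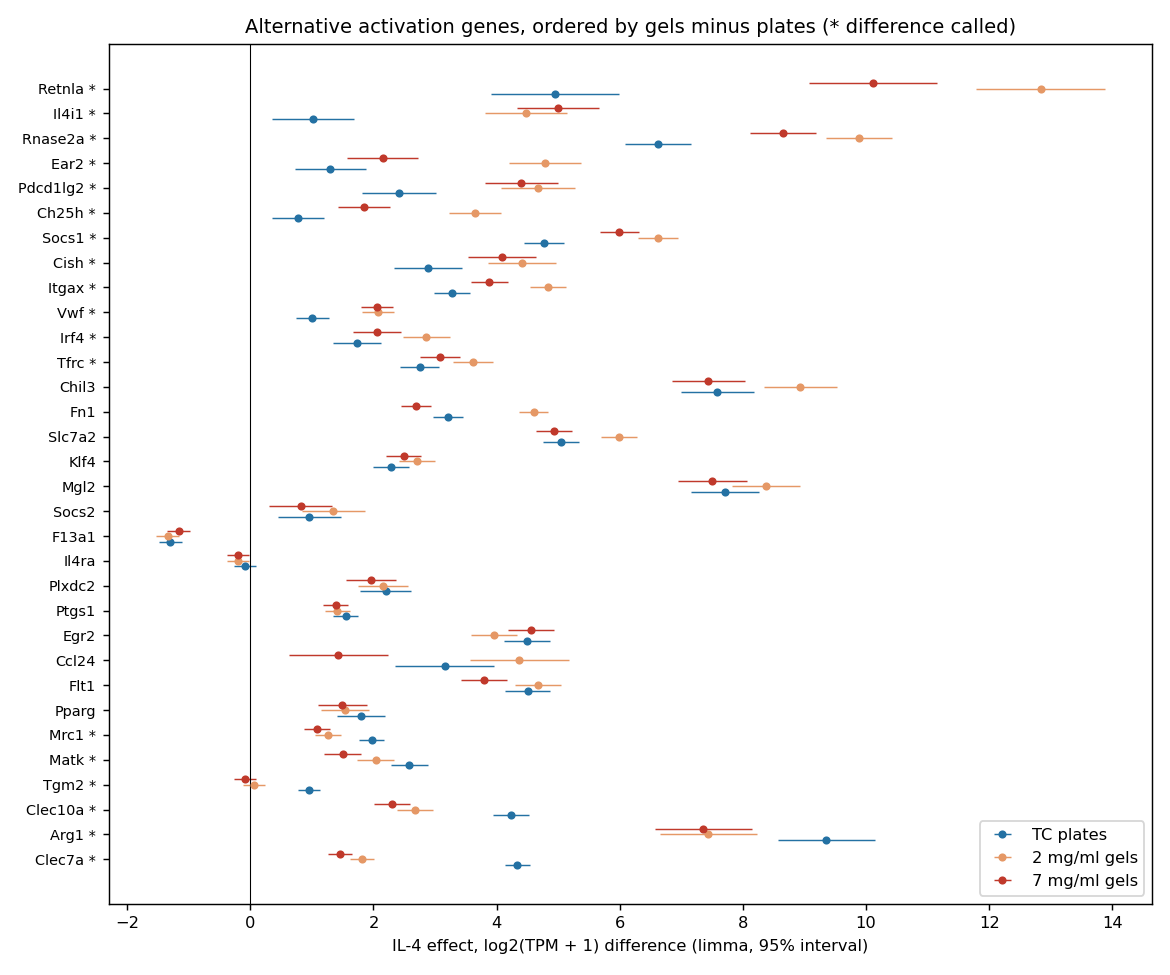
Rows are the 32 alternative activation genes, ordered by the difference between gels and TC plates, with the IL-4 effect on plates (blue), in 2 mg/ml gels (orange) and in 7 mg/ml gels (red) as log2(TPM + 1) differences, and bars are 95% intervals from limma. A star marks the 18 genes with a called difference, 12 with a higher effect in gels, towards 1 end of the order, and 6 with a higher effect on plates, towards the other.

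The genes that moved together were also looked at for the letters that STAT6 binds in DNA. The motif TTCNNNNGAA, which reads the same on both strands, was searched in RefSeq promoter windows of 300 bases (250 before to 50 after a start site, GRCm38.p6), which were at hand for 7496 of the fitted genes. It was present for 482 of these (6.4%), for 63 of 992 genes with a called difference (6.4%), and for 11 of 95 genes that rose at least 2-fold in gels and on plates (11.6%). For only-in-gels, only-on-plates and opposite genes the counts were 2 of 26, 2 of 30 and 0 of 17. A match is a description and not a binding site, and no match says only that these letters are not in the window. The matches in 3 genes that IL-4 raised in gels and on plates (Retnla and Pdcd1lg2 more in gels, Clec7a more on plates) and in Tlr8, which rose only on plates, are shown with 10 bases on each side and the motif in capitals, 5′ to 3′ on the strand of the gene.
Retnla (chr16:48842454-48842483, plus strand): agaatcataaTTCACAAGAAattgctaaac
Pdcd1lg2 (chr19:29410827-29410856, plus strand): catgctccagTTCCTCAGAAaccattctgg
Clec7a (chr6:129472891-129472920, minus strand): catttcagttTTCTTCAGAAgttacagcct
Tlr8 (chrX:167264387-167264416, minus strand): taaatgacttTTCCTCTGAAttcagtttcg

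Another 20 gene lists were read against the 13.5% of all genes with a called difference, 6.16% higher and 7.34% lower in gels. In 6 of these lists every called difference was a higher effect in gels, namely hypoxia and glycolysis, cholesterol synthesis, interferon-stimulated genes, cell cycle, MHC class II and NRF2 antioxidant genes. Of 29 fitted genes of hypoxia and glycolysis, 21 were called and all 21 had a higher IL-4 effect in gels. The median effect was −0.46 on plates and 0.05 in gels. On plates 20 of the 29 were called lower with IL-4 and 0 higher, and in gels 6 lower and 8 higher. The 22 cholesterol synthesis genes had 11 calls, all higher in gels. Their median effect was −0.69 on plates, where 15 fell, and −0.01 in gels, where 2 fell and 2 rose. Both directions held after median-ratio rescaling (22 and 16 calls, all higher), quantile normalization (22 and 15) and correction for GC content and length (22 and 14). Aldoc, a glycolytic aldolase, fell from 36.1 and 42.5 TPM to 8.00 and 9.32 TPM on plates. Its gel levels went from 91 and 78.7 to 54.9 and 53.8 TPM in low-collagen gels and from 74.7 and 78.7 to 66.8 and 67.4 TPM in high-collagen gels (difference 1.65 ± 0.13, adjusted p = 3.78e-05). Msmo1, a sterol demethylation enzyme, fell from 112 and 111 TPM to 56 and 55.9 TPM on plates. In gels it was at 37.5 and 36 TPM untreated and 36.7 and 36.1 with IL-4 at low collagen and 28 and 27.3 and 31.4 and 29.9 at high collagen. Without IL-4 the cholesterol genes were lower in gels than on plates by a median of −1.51, and the hypoxia and glycolysis genes were higher by a median of 0.32. Vegfa, a hypoxia target, fell in both (−1.19 ± 0.08 in gels and −1.03 ± 0.12 on plates), and its difference was not called.

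Of 18 fitted genes of lipid handling, 7 were called with a lower and 1 with a higher IL-4 effect in gels. The difference was above 0 in 8 of the 18, beside 3791 of all 9670 genes. Its median was −0.16 (−0.03 after correction for GC content and length) against −0.08 (−0.02) for all genes. Lpl, the lipoprotein lipase, rose from 224 and 229 TPM to 367 and 365 TPM on plates. It fell from 39.5 and 37.7 to 33.3 and 25.1 TPM in low-collagen gels and from 30.3 and 38.6 to 22.3 and 28.5 TPM in high-collagen gels (difference −1.10 ± 0.18, adjusted p = 0.00338). Cpt1a, which admits fatty acids to mitochondria for oxidation, had effects of −0.61 ± 0.05 in gels and 0.44 ± 0.07 on plates. The cholesterol carrier Apoe had effects of −0.84 ± 0.04 in gels and −0.36 ± 0.06 on plates, and Scd2, a fatty acid desaturase, was the gene with a higher effect in gels.

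Chemokines had 9 calls among 14 fitted genes, 8 of them higher in gels. Ccl8 and Ccl7, ligands for monocyte receptors, rose in both (4.84 ± 0.24 and 3.01 ± 0.16 in gels, 3.26 ± 0.34 and 2.06 ± 0.22 on plates). The call of Ccl8 was lost in 10 of 20 other fits (adjusted p up to 0.615 in limma), 8 of them on leaving out 1 library. The inflammatory chemokine Ccl4 fell less in gels (−0.85 ± 0.09) than on plates (−1.97 ± 0.13). Interferon-stimulated genes had a median difference of 0.86 with 25 of 26 differences above 0, beside 3791 of all 9670 genes. Of these 26, 4 were called (Zbp1, Ifi47, Gbp2 and Usp18), or 15.4% against 13.5% of all genes. There were 7 calls after median-ratio rescaling, 6 after quantile normalization and 8 after correction for GC content and length, all higher in gels. Their median IL-4 effect was −1.44 on plates, where 21 fell (1534 of all 9670 genes), and −0.63 in gels, where 15 fell (3358 of all 9670). The call of Usp18 was lost on leaving out any of 8 libraries (adjusted p = 0.0595 to 0.131 in limma). Of 14 genes for MHC class II and antigen presentation, 5 were called, all higher in gels, among them the invariant chain Cd74, which went from 13 and 14.9 TPM to 80.4 and 77.6 TPM on plates. In gels it went from 46.4 and 44.9 to 654 and 607 TPM in low-collagen gels and from 59.5 and 60.3 to 888 and 789.7 TPM in high-collagen gels (difference 1.35 ± 0.10, adjusted p = 2.98e-05).

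Lysosome and V-ATPase genes had 13 higher and 5 lower among 30. Atp6v0d2, the transcription factors Tfec and Mitf, Gpnmb and Atp6v1a had a higher effect on plates, and hydrolases such as Gusb (0.60 ± 0.05 in gels, 0.08 ± 0.07 on plates) and the cathepsins Ctsz and Ctsh (0.23 ± 0.06 and −0.79 ± 0.08 for Ctsh) had a higher effect in gels. Of 20 macrophage identity genes 15 were called, 6 higher and 9 lower, and of 23 for efferocytosis, complement and Fc receptors 17 were called, 7 higher and 10 lower, counts whose balance changed with the scaling (5 and 5, and 8 and 6, after median-ratio rescaling). Fcgr2b, the inhibitory Fc receptor, rose from 297 and 292 TPM to 1054 and 1113 TPM on plates but had 1036 and 1119.9 TPM in untreated low-collagen gels and 1024 and 1062 in untreated high-collagen gels. In the mean of both gels Fcgr2b rose with IL-4 as well, by less than on plates (difference −1.17 ± 0.07, adjusted p = 8.75e-06 in limma). Cfp, the complement protein properdin, rose in gels (0.42 ± 0.06) and fell on plates (−0.55 ± 0.08), and the complement chains C1qa and C1qb had called falls on plates (−0.67 ± 0.08 and −0.50 ± 0.07) and effects of −0.13 ± 0.05 and −0.06 ± 0.05 in gels.

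Matrix proteins and proteases had 8 higher and 3 lower among 20, including Spp1 (osteopontin, 0.20 ± 0.05 in gels and −0.96 ± 0.07 on plates) and the membrane-bound collagenase Mmp14 (−0.76 ± 0.10 and −2.13 ± 0.15). Of the 15 genes of the IL-4 receptor, JAK-STAT6 and SOCS, 6 were called. Il2rg, the common γ chain of the type I receptor, went from 157 and 173 TPM to 82 and 86.7 TPM on plates. Its gel levels went from 84.9 and 95 to 123 and 112 TPM in low-collagen gels and from 127 and 132 to 134 and 152 TPM in high-collagen gels (difference 1.22 ± 0.11, adjusted p = 8.58e-05). Stat6 and Il4ra had differences of 0.08 ± 0.08 and −0.12 ± 0.10 that were not called. The remaining lists, beside 6.16% higher and 7.34% lower among all genes, had these calls: integrins and adhesion 6 higher and 3 lower of 22, SRF and YAP targets and actin genes 7 and 1 of 18, immediate early and AP-1 genes 3 and 4 of 21, inflammatory cytokines and NF-κB targets 5 and 1 of 18, cell cycle and DNA replication 5 and 0 of 34, polyamine and arginine metabolism 3 and 2 of 18, growth factors 3 and 2 of 13, the unfolded protein response 1 and 2 of 25, and NRF2 antioxidant genes 2 and 0 of 17. The cell cycle, unfolded protein and NRF2 lists thus had 14.7%, 12% and 11.8% called, near the 13.5% of all genes, and these counts moved with the scaling. Cell cycle genes had 12 calls after median-ratio rescaling, 15 after quantile normalization and 12 after correction for GC content and length, all higher in gels. In the same order the unfolded protein response had 3, 5 and 6 calls, of which 3, 2 and 2 were higher, and NRF2 genes had 4, 6 and 3, of which 4, 5 and 3 were higher. In the cytokine list Il1b was the gene with a lower effect in gels, going from 2.66 and 1.95 TPM to 0.934 and 0.739 TPM on plates. Its gel levels went from 34.4 and 34.2 to 1.64 and 5.48 TPM in low-collagen gels and from 34.7 and 27.8 to 5.34 and 4.39 TPM in high-collagen gels (difference −1.93 ± 0.41, adjusted p = 0.0116). The call of Il1b was lost in 4 of 20 other fits (adjusted p up to 0.0643 in limma), 1 of them without TC untreated replicate 2. The lists overlap and were chosen with results of these data known, so the counts are descriptions.

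**Figure D5:**
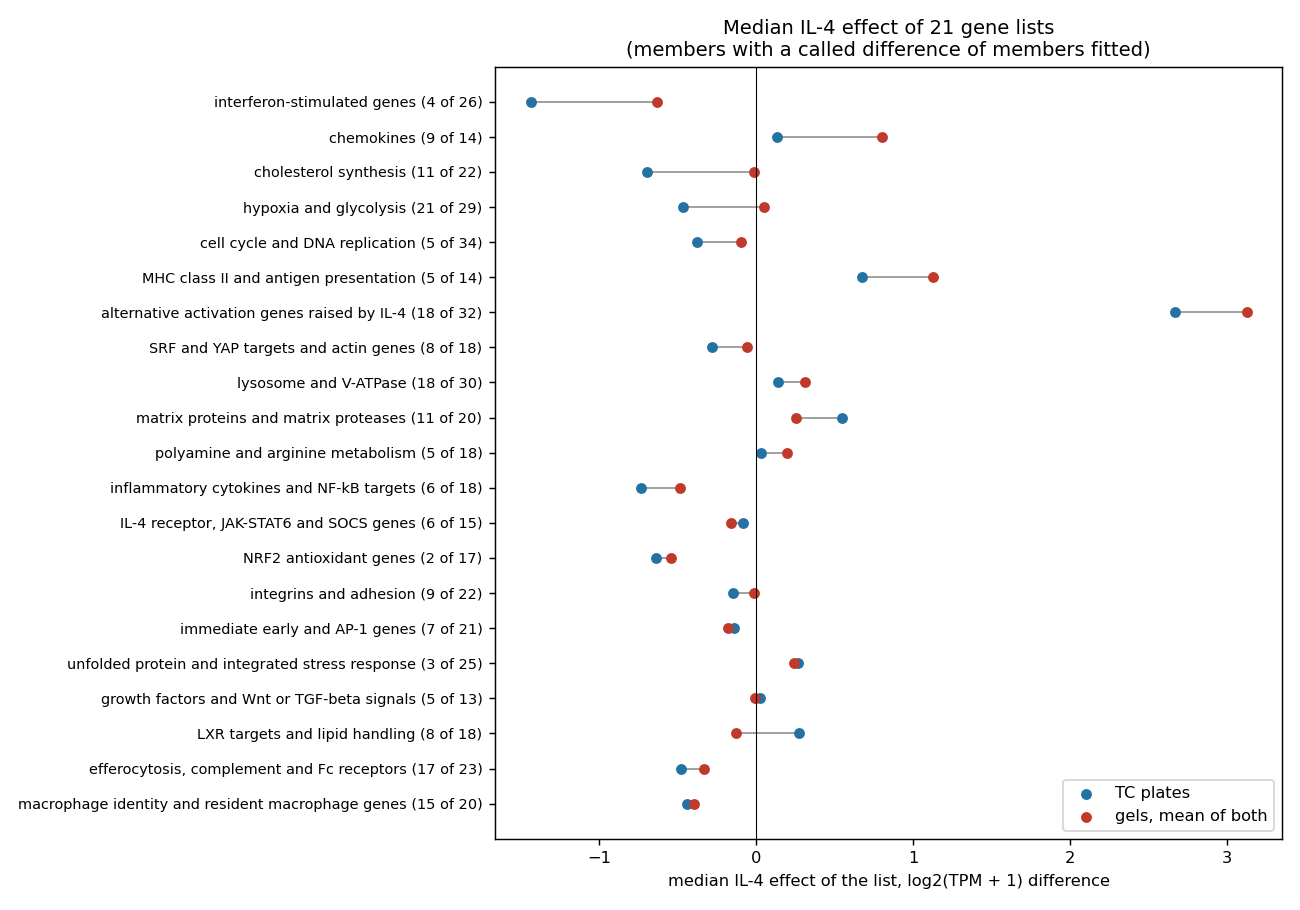
Each row is a gene list, with the median IL-4 effect of its fitted genes on TC plates (blue) and in gels (red) as log2(TPM + 1) differences, and in brackets the genes with a called difference of those fitted. The longest lines are those of interferon-stimulated genes (−1.44 on plates and −0.63 in gels), cholesterol synthesis (−0.69 and −0.01), chemokines (0.13 and 0.80) and hypoxia and glycolysis (−0.46 and 0.05).

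Few genes were called for a difference in IL-4 effect between the collagen concentrations. Between high- and low-collagen gels, 19 genes were called (0.196%), of which 9 were among the 1306. The standard error of this comparison was larger than that between gels and plates. In the same comparison 1128 genes had an unadjusted p under 0.05 in limma, so a gene without a call may still differ. Retnla had IL-4 effects of 12.83 ± 0.47 in low- and 10.11 ± 0.47 in high-collagen gels and was not among the 19, while Ear2 (4.78 ± 0.26 and 2.15 ± 0.26) and Ch25h (3.66 ± 0.19 and 1.84 ± 0.19) were. Of the only-in-gels genes Sesn1 and Wwp1 were called, both falling further at low collagen (−1.47 ± 0.06 and −1.44 ± 0.07) than at high collagen (−0.92 ± 0.06 and −0.77 ± 0.07). No gene with a response only on plates and none with opposite responses was among the 19. Low-collagen gels alone against plates gave 1261 calls and high-collagen gels alone 782, comparisons that share the plate libraries. The 23 genes with opposite effects were called in both, and so were the 15 that rose only on plates. Of the 21 that fell only in gels 20 were called with low-collagen gels alone and 10 with high-collagen gels alone. In the same order, 22 and 18 of the 24 that fell only on plates were called, and 12 and 11 of the 13 that rose only in gels. The classes were cut from the mean of these comparisons, so these counts largely follow from the rule and are no separate evidence.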

How the data were processed

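Polyadenylated RNA of 12 samples was made into stranded TruSeq libraries. The deposited values are TPM per gene, which the authors made with kallisto 0.46.1 against GRCm38 (both from the submitters' processing notes). TPM keep no depth, so the number of reads behind a value is unknown. Kallisto divides reads among similar transcripts, so levels of close paralogs and pseudogenes are uncertain. Of 34456 lines, 129 repeats were collapsed. Where a symbol had several gene IDs, lists used the one with the highest mean TPM.

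Genes with a mean of at least 5 TPM were fitted as log2(TPM + 1) in limma 3.58.1 (R 4.3.3) with 6 groups. Variances were moderated towards a trend on the mean, and p-values were adjusted by Benjamini-Hochberg over all 9670 genes. On this scale fold changes of low genes are understated. An exact permutation test of 2 libraries against 2 cannot give a p below 0.333. The code was tested on simulated data. Alternatives were the pseudocount, filter, scaling, trend, thresholds, replicate block, each gel density alone and leaving out each library.

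Named genes were the 8 largest differences per class and direction (4 for classes of the same direction) with 1 line per symbol, values not identical to another gene and no overlap of the 4 libraries of a responding condition, every alternative activation gene in a class, and the 3 largest called of each other list. Other genes are named as members of a class or list and were chosen after their values were seen. The members and lists were chosen with earlier results of these data known. Some members and sequences are not reported here.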

Additional observations from a re-analysis of the deposited data

Results flagged for a closer look

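The IL-4 effect in gels and on TC plates differed, by limma's test of the difference itself, for 1306 genes (adjusted p under 0.05, Benjamini-Hochberg), and the gene with the largest difference in each class and direction is given here. Among genes with a response only in gels these were the pseudogene Tdgf1-ps1 (2.58) and Ermard (−1.35), on the log2(TPM + 1) scale. Among genes with a response only on plates they were Gpr65 (−1.70) and Acod1 (3.56). Among genes with opposite responses they were AA467197 (3.78) and Gprc5c (−2.16). For genes that moved in the same direction they were Retnla (6.52) and Nr4a1 (−2.01), which moved further in gels, and Ms4a4a (−3.95) and Gpr84 (2.45), which moved further on plates. Causes were not tested.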

How the results depend on the processing

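At an adjusted p under 0.2 there were 2984 calls (1162 higher and 1822 lower in gels), with 372 genes of the same direction larger in gels and 526 larger on plates. At an adjusted p under 0.01 there were 631 (328 and 303), with 76 and 100, and with a difference of at least 1 there were 226 (138 and 88), with 39 and 54. These counts follow from the thresholds. Median-ratio rescaling left 459 lower calls. Scaling also changed which genes were in the classes. Of the 34 genes only in gels, 39 only on plates and 23 in opposite directions, 24, 23 and 15 stayed after median-ratio rescaling. Quantile normalization kept 26, 26 and 13, and correction for GC content and length kept 24, 25 and 17. The class only in gels held 59 genes with a mean of at least 1 TPM (32 shared with the 34), 61 with no filter (25 shared), 145 with a response of at least 0.58, 56 with low-collagen gels alone (31 shared) and 12 with high-collagen gels alone (11 shared). The class only on plates held 120 with a response of at least 0.58. Low-collagen gels alone gave 119 genes larger on plates, and high-collagen gels alone gave 782 calls, 337 of them lower, with 86 genes larger in gels and 132 larger on plates. The cause was not tested.

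Leaving out 1 library gave 767 to 1345 calls, 368 to 616 higher and 383 to 781 lower, with 31 to 46 genes only in gels, 31 to 43 only on plates, 14 to 24 in opposite directions, 90 to 166 larger in gels and 139 to 210 larger on plates. The lowest counts of calls came without 1 of the plate libraries, and the 14 without TC IL-4 replicate 2. Of 115 named genes, 113 kept their direction in every alternative, and 28 lost their call in at least 1 of 20 other fits, 22 of them on leaving out 1 library. For several genes above, only losses on leaving out 1 library are given, and other fits ended calls too. With all 20 fits counted, Irf4 lost its call in 15, Tfrc and Gm6741 in 14, and Hemk1 and Usp18 in 10. Gfra4 lost it in 9, Gbp2 in 5, Il1rap in 4 and Ifi47 in 3. Irf4 turned to −0.28 with a pseudocount of 0.1 (adjusted p = 0.648) and Cx3cr1 to −0.047 after quantile normalization (adjusted p = 0.906), both in limma.

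With the replicate number as a block there were 1158 calls, 530 higher and 628 lower. Deviations of same-numbered libraries correlated at −0.19 to 0.16, and 2 of 15 pairs were over 0.1. Pairing by these numbers was thus not seen, but 2 libraries per group cannot exclude it. With 2 libraries per group and unknown depth, many small differences may have been missed. The called differences nearest to none were 0.198 and −0.209.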
